A study of Mus musculus with 12 samples.

Results

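The regions described here are stretches of chromatin that carried an ATAC-seq peak in all 12 libraries of a study of mouse CD4+ T cells and whose merged peaks spanned 1000 bp or more. They were found by merging peaks that overlapped by at least 1 bp across the 12 peak lists on chromosomes 1 to 19 and X, which gave 110642 merged regions. Of these, 14561 had a peak in every library and are called shared, and 6910 of the shared regions were 1000 bp or wider and are called wide. The other 7651 shared regions were narrower and are called narrow. The members were therefore selected on peak presence and merged width, and neither property is a result below. At the limit, the regions at A130010J15Rik, Bag1/Chmp5 and Ddost had a merged width of 1000 bp and were kept, while that at Msto1 measured 999 bp and was not.

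ATAC-seq uses the Tn5 transposase to cut and tag DNA that is not wrapped in nucleosomes or otherwise hidden, so that a pile-up of cuts marks an open promoter or enhancer. Promoters of broadly used genes are usually open in every cell type and lie in stretches rich in CpG dinucleotides, where nucleosomes are displaced around the transcription start. Enhancers, which lie within or between genes, are more often open in particular cell types. A naive CD4+ T cell that meets its antigen divides and can become a Th1 cell, which makes interferon-gamma, or a Th2 cell, which makes interleukin-4 and related cytokines.

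The 12 libraries came from spleen CD4+ T cells of C57BL/6J mice (WT) or of the strain C57BL/6J-Ets1-SE-KO (KO), whose name gives a knockout of an element called Ets1-SE at Ets1, the gene of an ETS family transcription factor. Naive cells were isolated by negative selection and either used directly or polarized for 6 days with plate-bound anti-CD3 and soluble anti-CD28, with IL-12 and IL-2 for Th1 cells and with IL-4 and anti-IFN-gamma for Th2 cells. Each of the 6 groups (naive WT, naive KO, Th1 WT, Th1 KO, Th2 WT, Th2 KO) held 2 libraries. The 2 libraries of a naive group were technical replicates of 1 biological sample, so naive genotypes cannot be told apart from naive samples. The 2 libraries of each polarized group were numbered as separate biological replicates, although the labels do not say whether these were separate mice. The number of mice per sample and their age were not given in the sources used here.

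The lists held between 34763 and 56380 peaks per library, and read depth was not given in the sources used here. Both Th2 KO libraries are named as Th1 in their titles and as Th2 cells in their source field. Across the wide regions, the log2 number of bases covered by peaks in these libraries correlated with that of the Th2 WT libraries at r = 0.583 to 0.612 and with that of the Th1 libraries at r = 0.508 to 0.570, a description over regions that share libraries and list length. Among runs of merged regions in a window beyond Ets1 with peaks of WT libraries only, the run with the most WT peaks was picked. Chosen by that property and so no check of the labels, it comprised 8 regions (chromosome 9, 32901119 to 32926705, GRCm38). It held 32 peaks of WT libraries, the total by which it was picked, and no wide region lay among the 8. Of the T cell markers, Cd3e, Cd3g, Lck and Cd28 had a peak at their start in 12 libraries, Cd3d in 4, Cd4 in 2 and Thy1 in 0. Among B cell markers Ms4a1, Cd79a, Cd79b and Pax5 had one in 2 libraries each, and among myeloid markers Itgam had one in 4 and Cd14 in 3. The part of such cells in the results below was not tested.

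The widest region with a listed protein-coding start and the widest at a start of 4 gene groups are shown by their promoter letters. They were chosen by width and not by base composition. Each line gives 250 bases before the annotated start (RefSeq, GRCm38.p6), read in the direction of the gene. Capitals mark matches, on either strand, to the core letters bound by SP and KLF factors (GGGCGG), NFY (CCAAT), ETS factors (CCGGAAG), NRF1 (GCGCATGCG), CREB-type factors (TGACGTCA) and YY1 (AAGATGGCG). The positions are chr9:124423401-124423650 (minus strand) for LOC108167694, a gene model known here by its identifier only, chr3:51340645-51340894 (minus) for Elf2, an ETS factor, chr16:92697330-92697579 (minus) for Runx1, a regulator of T cell development, chr6:51469846-51470095 (minus) for Hnrnpa2b1, an RNA-binding splicing factor, and chr11:114668330-114668579 (plus) for Rpl38, a ribosomal protein of the large subunit.
LOC108167694: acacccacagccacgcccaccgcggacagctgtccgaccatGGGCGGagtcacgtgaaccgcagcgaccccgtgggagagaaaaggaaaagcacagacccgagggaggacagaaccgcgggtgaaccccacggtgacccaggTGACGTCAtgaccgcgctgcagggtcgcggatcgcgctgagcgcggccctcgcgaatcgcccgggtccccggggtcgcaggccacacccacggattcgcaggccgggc
Elf2: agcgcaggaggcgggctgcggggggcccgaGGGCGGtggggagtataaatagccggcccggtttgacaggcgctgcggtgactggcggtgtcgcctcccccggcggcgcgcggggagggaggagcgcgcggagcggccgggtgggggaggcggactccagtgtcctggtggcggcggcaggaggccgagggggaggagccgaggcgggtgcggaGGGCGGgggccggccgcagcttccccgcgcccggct
Runx1: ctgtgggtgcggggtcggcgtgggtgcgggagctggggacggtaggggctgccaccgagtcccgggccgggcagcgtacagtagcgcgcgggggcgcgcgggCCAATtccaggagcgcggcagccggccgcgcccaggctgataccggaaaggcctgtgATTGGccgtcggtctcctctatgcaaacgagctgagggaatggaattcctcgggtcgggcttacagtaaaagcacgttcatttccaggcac
Hnrnpa2b1: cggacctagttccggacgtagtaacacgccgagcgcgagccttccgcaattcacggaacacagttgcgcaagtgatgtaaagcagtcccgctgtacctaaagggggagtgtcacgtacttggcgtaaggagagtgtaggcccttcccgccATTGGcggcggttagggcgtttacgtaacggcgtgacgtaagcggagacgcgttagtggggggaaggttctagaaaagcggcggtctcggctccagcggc
Rpl38: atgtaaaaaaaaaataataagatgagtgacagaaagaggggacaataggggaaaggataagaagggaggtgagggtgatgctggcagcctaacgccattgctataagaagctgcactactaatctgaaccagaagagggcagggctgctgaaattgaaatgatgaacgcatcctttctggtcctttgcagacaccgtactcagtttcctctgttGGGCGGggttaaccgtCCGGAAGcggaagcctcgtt
The 5 stretches had GC contents of 70.0%, 79.2%, 67.6%, 59.6% and 47.6% in that order. Their observed over expected CpG ratios were 1.01, 0.955, 0.978, 1.30 and 0.601. The Rpl38 promoter was the one of the 5 with a match to the ETS letters, and the Elf2 promoter, although it belongs to an ETS gene, held SP/KLF matches and none to ETS.

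The wide regions spanned a median of 1241 bp (quartiles 1110 and 1443 bp, highest 3692 bp), against 776 bp for narrow regions and 413 bp for regions that were not shared. Merged width is a union, so the stretch open in common was much shorter. The bases covered by peaks of all 12 libraries, here called the core, had a median of 468 bp, or 36.4% of the merged width. The core reached 1000 bp in 102 wide regions (1.48%) and 500 bp in 3046 (44.1%), and in 412 (5.96%) no base was covered in every library. A single peak of 1000 bp or more was present in at least 1 library for 5131 wide regions (74.3%) and in all 12 libraries for 137 (1.98%). In 3477 wide regions (50.3%) every library had exactly 1 peak, and in the other 3433 at least 1 library had its signal split into 2 or more peaks. The widest single peak of any library had a median of 1107 bp, so in most members at least 1 library reached the limit alone, while few had so long a peak in every library.

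**Figure D1:**
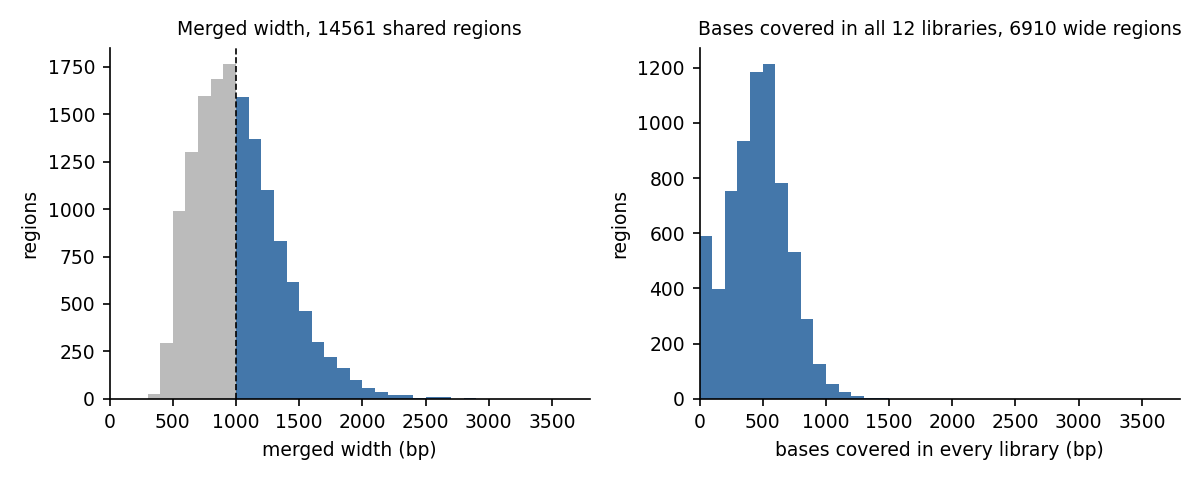
Left, merged width (bp, 100-bp bins) of the 14561 shared regions, with wide regions in blue right of the dashed limit at 1000 bp; right, number of bases covered in all 12 libraries (bp, 100-bp bins) in the 6910 wide regions. Widths fall off steadily on both sides of the limit without a gap, and the common core of most wide regions lies under 1000 bp, with a median of 468 bp.

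Within each library the wide regions held 14.2% to 22.1% of the peaks and 23.0% to 34.2% of the bases in peaks. A library's peaks covered on average 61.3% to 72.2% of a wide region. The best peak of a wide region had a median rank between the 74.3 and 81.1 percentile of its own list by the authors' score, and for narrow regions this was 66.3 to 79.2. The 2 naive WT libraries placed narrow and wide regions almost level (78.3 and 79.2 percentile for narrow, 78.5 and 79.0 for wide).

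Gene starts were the common property of the set. A listed start of a protein-coding gene lay inside 4285 wide regions (62.0%), against 34.3% of narrow regions and 2.36% of regions that were not shared. For 4354 of the 21627 protein-coding genes no start was listed in the promoter table used, and counting either end of those gene models raised the wide share to 73.1% (5049 regions) and the narrow share to 40.8%. A wider region has more room to hold a start by its size alone. Among shared regions, the share with a listed start was 6.29% under 500 bp, 20.4% from 500 to 749 bp, 46.3% from 750 to 999 bp and 59.7% from 1000 to 1249 bp. Above that it stayed between 63.2% and 66.8% up to the 165 regions of 2000 bp or more, where it was 65.5%. Starts of 2 or more protein-coding genes lay in 544 wide regions (7.87%; narrow 2.51%), and 480 of the wide regions (6.95%; narrow 2.27%) held a divergent pair, in which the genes are read away from each other. Examples were Hnrnpa2b1/Cbx3, Ddx5/Cep95, Atp5j/Gabpa, and Psma7/Ss18l1. Of the remaining wide regions, 1010 (14.6%) overlapped a protein-coding gene without a start and 851 (12.3%) lay between genes at a median of 19438 bp from the nearest one.

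Regions at starts and away from them differed in how much their libraries had in common. The median core was 506 bp in wide regions at a listed start, 321 bp in those inside gene bodies and 321 bp in those between genes, at similar median widths of 1254, 1202 and 1221 bp. No base was common to all 12 libraries in 3.13% of wide regions at starts, in 13.6% of those in gene bodies and in 12.7% of those between genes.

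In the 3283 wide regions with exactly 1 listed start, the merged region reached further into the gene than away from it. The median extent was 540 bp upstream and 694 bp downstream of the start, and 35.1% of these regions were longer upstream. Narrow regions with 1 start, shorter by the rule, were nearly even, with 388 bp upstream, 421 bp downstream and 46.2% longer upstream. At the start itself a peak covered 92.8% to 96.3% of these wide regions in every library. At 500 bp upstream this fell to between 26.5% and 33.6%, and at 500 bp downstream to between 29.4% and 46.2%. The 2 naive WT libraries stood apart downstream of the start. At 250 bp downstream they covered 51.2% and 46.2% of the wide regions, the naive KO libraries 66.5% and 71.8%, and the 8 polarized libraries 70.8% to 77.7%. At 250 bp upstream the naive WT values of 83.6% and 82.4% lay beside 80.2% and 82.3% in naive KO and 76.2% to 82.7% in polarized libraries. The same was seen at narrow regions, where 39.1% and 36.6% were covered at 250 bp downstream in naive WT, 48.6% and 53.0% in naive KO and 49.3% to 58.4% in polarized libraries. As each naive genotype is 1 biological sample, genotype and sample cannot be told apart here.

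**Figure D2:**
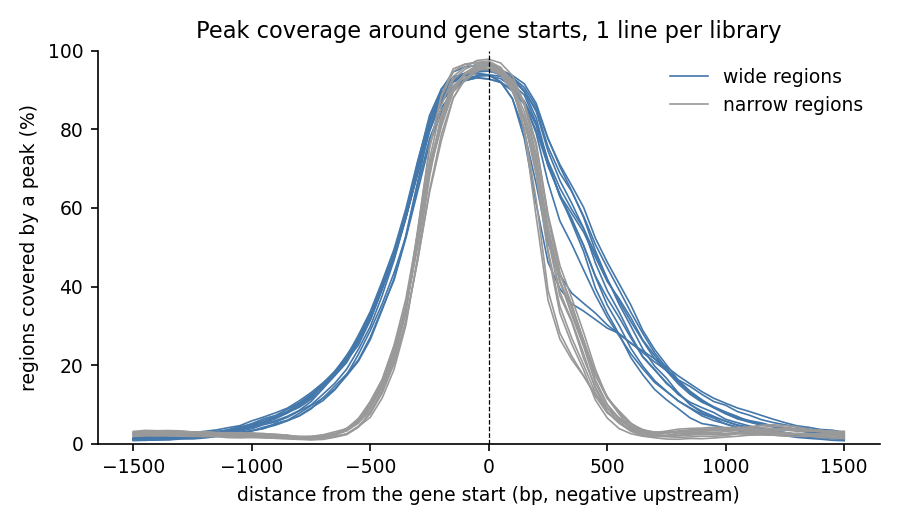
Percent of regions with 1 listed start in which a library's peak covers a given distance from the start (bp, negative upstream), with 1 line per library, blue for the 3283 wide and grey for the 2220 narrow regions. Wide regions extend further on both sides, and the 2 lowest blue lines at 250 bp downstream, at 46.2% and 51.2%, are the naive WT libraries.

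The base composition of the promoters followed the same order. Over the 300 bases around a start, the median CpG observed over expected ratio was 0.845 for the 5554 listed starts in wide regions, 0.766 for the 3097 in narrow regions and 0.574 for all 21044, and the median GC content was 63.7%, 59.7% and 56.7%. A ratio of 0.6 or more was found in 87.3%, 77.2% and 48.1%. Seen from the other side, 47.9% of CpG-rich promoters (a ratio of 0.6 or more) started in a wide region, against 6.47% of the others. The SP/KLF letters GGGCGG were present in 73.5% of promoters in wide regions, 64.5% in narrow regions and 46.7% of all. The ETS letters CCGGAAG were present in 22.8%, 24.4% and 11.7%, so wide and narrow shared regions were close and both were above all promoters. The shares for CCAAT were 38.5%, 45.3% and 38.5%, those for the YY1 letters 3.40%, 5.04% and 1.84%, and those for the NRF1 letters 5.38%, 4.04% and 2.37%. TATAAA was less frequent in wide (5.19%) and narrow (6.30%) than in all promoters (12.7%), and the same held for the RUNX letters TGTGGTT (2.99%, 3.88% and 4.74%) and the AP-1 letters TGACTCA or TGAGTCA (2.45%, 3.39% and 4.69%). The CRE letters were found in 4.21%, 3.75% and 2.26% and the E-box CACGTG in 11.2%, 11.6% and 7.91%. Matches of different motifs that overlapped were counted for each, both strands were read, and a match says only that the letters are there. Among CpG-rich promoters alone, ETS letters were in 24.2% of those in wide and 26.8% of those in narrow regions, and SP/KLF letters in 77.3% and 69.3%.

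Genes that run basic processes were often, but not uniformly, at wide regions. Of all 21627 protein-coding genes, 26.5% had their start (or, with no listed start, a gene end) in a wide region, 15.2% in a narrow one, and 46.4% in no region. The gene groups below were chosen with earlier results of these data known, so their shares describe the groups and are not a test. Among 33 splicing factors of the SR and hnRNP families, which bind pre-mRNA and steer exon choice, 27 (81.8%) had a wide region and the other 6 a narrow one. Hnrnpa2b1 had the widest at 2397 bp (core 612 bp), followed by the helicase gene Ddx5 at 2049 bp (core 968 bp), and Hnrnpdl, Srsf6 and Hnrnpa1 measured 2021, 1959 and 1820 bp. The Hnrnpa2b1 region was covered over 775 to 2110 bp in the 12 libraries (median 1733.5 bp), and the 2 Th2 KO libraries, at 1846 and 775 bp, differed by more than the libraries of each other group.

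The 77 cytoplasmic ribosomal proteins, which are among the most highly transcribed genes of any cell, were nearly all at shared regions, yet fewer of these were wide. Wide regions held 33 (42.9%) and narrow ones 42 (54.5%). The median merged width over the 75 was 960 bp, against 1490 bp for the 33 splicing factors and 1099.5 bp for the 9010 protein-coding genes at a shared region, while the median cores were 453, 612 and 464 bp. The widest were Rpl7, in a region of 2079 bp that it shares with Rdh10, and Rpl38 at 1798 bp. The 31 proteasome subunits, which degrade tagged proteins, were similar, with 15 wide (48.4%), 16 narrow and a median width of 974 bp. RNA polymerase II and the general transcription factors were wide in 20 of 38 cases (52.6%), led by the largest polymerase subunit gene Polr2a at 1871 bp and the elongation kinase gene Cdk9 at 1678 bp.

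Chromatin regulators and cell cycle genes had larger wide shares, both at 63.9% (23 of 36). The chromatin remodeller gene Chd1, whose start is not listed, had an end in a region of 2691 bp (core 369 bp), and Kmt2e, of the family of histone H3 lysine 4 methyltransferases, in one of 2182 bp (core 859 bp). Of the polycomb repressive complex 2 genes, Eed (1842 bp, core 1182 bp), Suz12 (1639 bp) and Ezh2 (1564 bp) were all wide. CTCF and cohesin genes, which shape chromosome loops, were wide in 8 of 11 cases (72.7%), with Pds5a at 2350 bp and Ctcf at 1562 bp. The G1 kinase gene Cdk6 had a region of 2673 bp with no base common to all libraries: its libraries covered 609 to 1488 bp (median 857 bp) in 1 to 3 peaks. The CDK inhibitor gene Cdkn2c had 2165 bp with a core of 639 bp. Genes used by dividing cells, such as Mki67 (1612 bp), Plk1 (1722 bp) and Mcm7 (1755 bp), were open in the naive libraries as well, as membership requires.

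Immediate early genes, which respond within minutes to stimulation, were wide in 13 of 33 cases (39.4%) and narrow in 13. Jun, a subunit of AP-1, had the widest at 2087 bp, and its core of 1187 bp was the longest of the group's wide regions. Peaks covered 1360 and 1377 bp of it in naive WT, 1514 and 1644 bp in naive KO, 1835 and 1953 bp in Th1 WT, 1935 and 1786 bp in Th1 KO, 1945 and 1495 bp in Th2 WT, and 2010 and 1291 bp in Th2 KO. The naive libraries were lower than the Th1 libraries without overlap, while the Th2 libraries overlapped with both. Dusp1, which encodes a phosphatase of MAP kinases, was next at 1901 bp (core 605 bp).

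**Figure D3:**
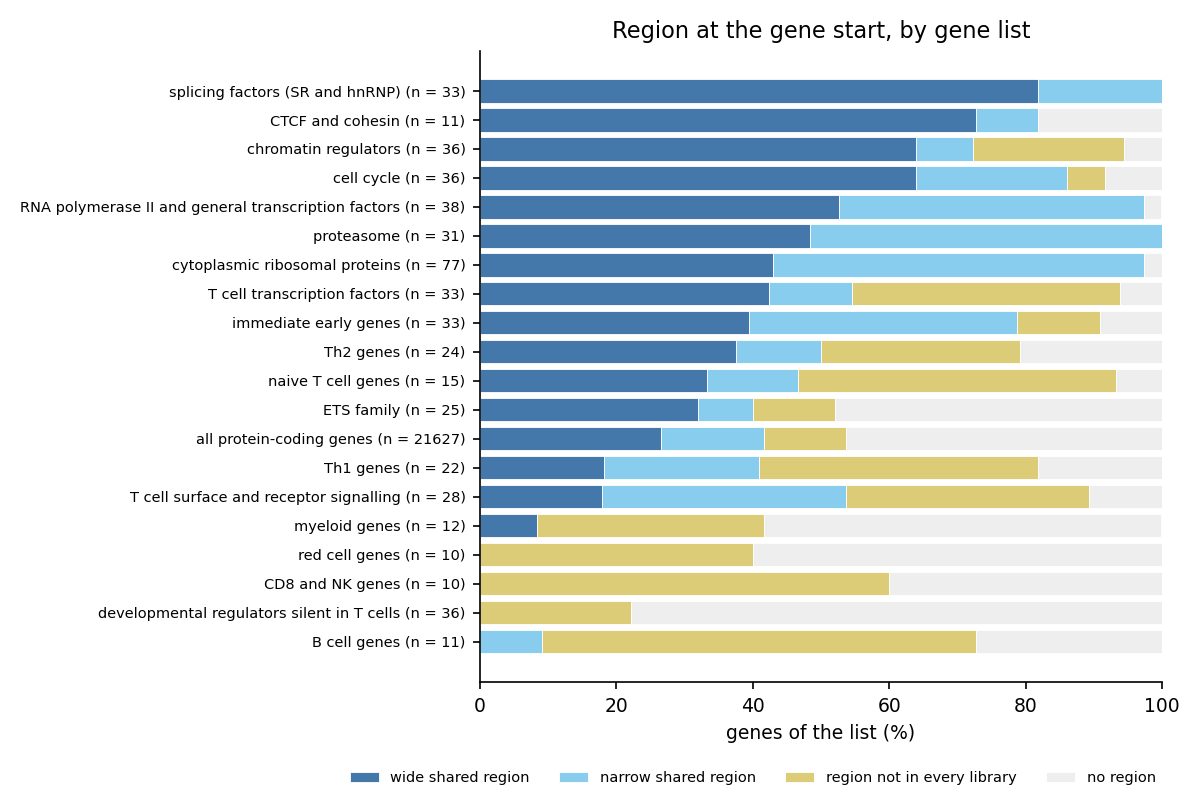
Percent of the genes of each list whose start (or, with no listed start, gene end) lies in a wide shared region, a narrow shared region, a region not found in every library, or no region, ordered by the wide share. Splicing factors lead with 81.8% wide, ribosomal proteins have 42.9% wide and 54.5% narrow, and all protein-coding genes have 26.5% wide.

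The lists of T cell genes lay on both sides of the 26.5% of all protein-coding genes. Of 28 genes of the T cell surface and receptor signalling, 5 (17.9%) had a wide region: Cd69 (1696 bp), Zap70 (1355 bp), Ptpn22 (1285 bp), Fyn (1204 bp) and Ptprc (1053 bp). Another 10 were narrow and 10 lay in regions that some libraries lacked. Zap70, the kinase that binds the activated T cell receptor, had a core of 70 bp, and its libraries covered between 238 and 1138 bp (median 524.5 bp). The Th2 KO libraries, at 1138 and 513 bp, differed from each other by more than the 2 libraries of each other group. T cell transcription factors were wide in 14 of 33 cases (42.4%), with Runx1 at 2358 bp (core 195 bp), the NFAT gene Nfatc2 at 2162 bp (core 0 bp) and Cbfb, whose product pairs with RUNX proteins, at 2072 bp (core 557 bp). Of 22 genes tied to Th1 cells 4 (18.2%) were wide, and of 24 tied to Th2 cells 9 (37.5%) were. They include the interferon-gamma receptor gene Ifngr2 (2265 bp, core 0 bp), the IL-12 receptor gene Il12rb2 (1386 bp), the IL-4 signal transducer gene Stat6 (2530 bp, core 250 bp) and Epas1 (2176 bp, core 400 bp). Naive T cell genes were wide in 5 of 15 cases, with Tob1 at 1957 bp and the egress receptor gene S1pr1 at 1909 bp. Of genes used by other cells, 0 of 11 B cell genes, 0 of 10 red cell genes, 0 of 10 CD8 and NK genes and 0 of 36 developmental regulators had a wide region, and of 12 myeloid genes Irf8 (1136 bp), which other blood cells also use, was the one that did.

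Of the 25 ETS family genes, 8 (32.0%) had a wide region at their start or end. Elf2 (2147 bp, core 332 bp), Gabpa (1890 bp, core 924 bp), Ets2 (1536 bp), Etv6 (1458 bp), Elk4 (1295 bp, core 0 bp), Elf1 (1273 bp, core 829 bp), Etv5 (1091 bp) and Etv4 (1005 bp) made up these. Gabpa, an ETS factor that acts at many housekeeping promoters, shares its region with Atp5j, a subunit of the mitochondrial ATP synthase. Its peaks covered 945 and 1070 bp in naive WT, 1114 and 1045 bp in naive KO, 1516 and 1319 bp in Th1 WT, 1016 and 1727 bp in Th1 KO, 1363 and 1695 bp in Th2 WT, and 1798 and 1787 bp in Th2 KO. The naive values lay below 7 of the 8 polarized ones and overlapped with the lowest Th1 KO library.

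Neither Ets1 nor its neighbour Fli1 had a shared region at a start, but wide regions lay inside both genes and beyond Ets1. The region of 1116 bp at 32661052 to 32662167 on chromosome 9, in the body of Ets1, had no common core and was covered over 263 and 604 bp in naive WT, 422 and 462 bp in naive KO and 639 to 879 bp in the 8 polarized libraries. The region of 1086 bp at 32709589 to 32710674, also in the body, was covered over 200 and 213 bp in naive WT, 303 and 267 bp in naive KO, 722 and 446 bp in Th1 WT, 453 and 651 bp in Th1 KO, 841 and 645 bp in Th2 WT, and 760 and 847 bp in Th2 KO. In both Ets1 regions every polarized library exceeded every naive one. KO and WT libraries overlapped in Th1 and Th2 cells, except in the first region in Th1 cells, where KO libraries covered 878 and 879 bp and WT libraries 804 and 639 bp. limma called neither region in any comparison described further on. In the body of Fli1, the gene of another ETS factor, lay a region of 1655 bp at 32486691 to 32488345. It was covered over 689 and 482 bp in naive WT, 416 and 352 bp in naive KO and 807 to 1269 bp in polarized libraries. The region of 1086 bp at 32520640 to 32521725, also in Fli1, was covered over 296 to 625 bp across all 12. A last wide region, of 1212 bp at 33060365 to 33061576, lay 302545 bp beyond Ets1 and 133660 bp beyond the stretch without KO peaks. It had a core of 480 bp and was covered over 562 to 700 bp in naive libraries, 705 to 939 bp in Th1 and 1001 to 1212 bp in Th2 libraries. These 3 ranges did not overlap as counted, but those of naive and Th1 libraries nearly met, at 700 bp in naive WT and 705 bp in Th1 WT. Over all wide regions that Th1 WT library covered a median of 884 bp, against 823 and 821 bp in naive WT. The gap between naive and Th1 libraries therefore need not hold after centring. In this region beyond Ets1, KO libraries covered 1001 and 1212 bp in Th2, 912 and 939 bp in Th1 and 562 and 583 bp in naive cells. WT libraries covered 1041 and 1053 bp, 705 and 774 bp, and 700 and 699 bp in the same order. KO thus lay above WT in Th1 and below WT in naive cells, where each genotype was 1 biological sample. Bases of named regions are given as counted, without centring. The median covered bases over all wide regions differed between libraries, from 785 to 927 bp, so close ranges can change order after centring.

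The 10 widest regions with a listed start were those of LOC108167694 (3207 bp), Rreb1 (2823 bp), Cdk6 (2673 bp), Vim (2655 bp), Erbin (2634 bp), Nek8/Tlcd1 (2623 bp), Csrnp1 (2614 bp), Eea1 (2570 bp), Crim1 (2567 bp) and Sp3 (2566 bp). LOC108167694 (chromosome 9, 124422718 to 124425924) was the one of these with a core over 1000 bp (1816 bp). The others ranged from a core of 0 bp at Cdk6 and at Rreb1, a zinc finger transcription factor gene, to 719 bp at Nek8/Tlcd1. Rreb1 shows how such a union arises: its libraries covered between 276 and 1817 bp in 1 to 3 peaks, and a peak of 1000 bp or more was present in 2 of 12. At Vim, which encodes the filament protein vimentin, the 4 naive libraries covered 2156 to 2201 bp and the 8 polarized ones 1057 to 1753 bp, without overlap. Of the 5 widest regions with no listed start, Klf10 (2769 bp), Chd1 (2691 bp) and LOC102634078 (2981 bp) were gene ends and that in the body of Kdm6b, a histone H3 lysine 27 demethylase gene, measured 2865 bp with a core of 0 bp.

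The widest region of all, 3692 bp on chromosome 17 (39843030 to 39846721), lay between protein-coding genes, with Esp38 nearest at 103799 bp, and overlapped the annotated ribosomal RNA pseudogene Rn18s-rs5. It also had the longest core, 3326 bp, and 8 of 12 libraries placed it in the top percent of their scores. Of the 102 regions with a core of 1000 bp or more, 75 were at listed starts and 12 lay between protein-coding genes. These 12 were singled out after their values were seen. Whether their sequence is repeated in the genome, and whether reads can be placed there uniquely, was not examined. Whether their long cores and high scores reflect open chromatin was therefore not tested. A region of 1291 bp near Lrrc4c (chromosome 2, 98666151 to 98667441), with that gene 1034479 bp away, was covered over 1224 to 1286 bp in every library and stood in the top percent of the scores in all 12. A region of 2369 bp near Gm2244 (chromosome 14, 19417276 to 19419644) had 95.7% of its width in common, the largest share of all members, and one of 1624 bp near Ly6c2 (chromosome 15, 75085505 to 75087128) had 92.9%. Another, near Trim55, overlapped 4 annotated tRNA genes, and that near Prss12 held the start of the snoRNA host gene Snhg8. At gene starts, the longest cores after LOC108167694 and Crlf2, the gene of a cytokine receptor subunit (1933 bp), were at Sp4 (1410 bp), Cdca3 (1386 bp), Slx4ip/Mkks (1378 bp) and Hsp90b1 (1321 bp), a chaperone of the endoplasmic reticulum.

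Several genes carried 3 or more wide regions without a start, and these were singled out after their values were seen. They include genes central to T cells and others, such as Akap13, Asap1 and Tiam1 with 3 each. The counts were not set against gene length or all genes, so whether T cell genes stand out was not tested. Ubac2 had 5, and Bach2, a repressor that keeps T cells quiescent, Cd247, the zeta chain of the T cell receptor complex, and Pde4d had 4 each. The widest in Cd247 (2071 bp, chromosome 1, 165801602 to 165803672, core 0 bp) was covered over 680 and 506 bp in naive WT, 417 and 508 bp in naive KO, 1342 and 1192 bp in Th1 WT, 1608 and 1264 bp in Th1 KO, 1510 and 1484 bp in Th2 WT, and 1411 and 1672 bp in Th2 KO. All polarized libraries thus exceeded all naive ones. The 3 others in Cd247 overlapped between naive and polarized libraries. In Bach2 the region of 1246 bp at 32405191 to 32406436 on chromosome 4 was covered over 619 to 759 bp in naive and 1022 to 1159 bp in polarized libraries. That of 1778 bp at 32238389 to 32240166 was covered over 1127 to 1638 bp in naive and 362 to 1352 bp in polarized libraries, with overlap. The remaining regions in Bach2, of 1219 and 1376 bp, also overlapped between naive and polarized libraries.

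To ask whether the wide regions changed in extent between conditions, the log2 bases covered by each library's peaks were compared after centring each library on its median over the 14561 shared regions. The 8 polarized libraries were fitted with limma, which shares the estimate of spread across regions, and p-values were adjusted by the Benjamini-Hochberg method over all shared regions. With a call at an adjusted p under 0.05, limma called 0 of 6910 wide regions in Th2 against Th1 (0.0% of all shared regions called), 0 in KO against WT in Th1 cells (0.0%), 0 in KO against WT in Th2 cells (0.0%) and 0 in the difference of the KO effect between Th2 and Th1 (0.0%). At an unadjusted p under 0.05 there were 811 wide regions (11.7%; 11.5% of all shared) for Th2 against Th1, 426 (6.16%; 6.24%) for KO in Th1, 337 (4.88%; 4.79%) for KO in Th2 and 373 (5.4%; 5.12%) for the difference. The median standard error of the Th2 to Th1 difference was 0.16 on the log2 scale and that of a KO to WT difference 0.23. The smallest adjusted p of a wide region was 0.0783 for Th2 against Th1, 0.351 and 0.592 for KO in Th1 and Th2 cells and 0.806 for the difference. In simulated data of this design, differences were planted between Th2 and Th1 only. The fit called 66 of 66 regions with a planted log2 difference of 2, 36 of 67 with 1 and 3 of 67 with 0.5. Regions without a planted difference gave 6 false calls. Differences of 0.5 were thus mostly not detectable in the simulation. The adjusted p depends on how many regions differ, so these shares need not hold in the real data. In the real data a difference of 1.53, in Ttc27, was not called (limma adjusted p 0.0783). Detection of KO to WT differences was not simulated. Without the 2 libraries of conflicting labels, limma called 0 wide regions in Th2 against Th1, with 619 at an unadjusted p under 0.05 and a smallest adjusted p of 0.239.

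The wide regions nearest to a call are named as a description, chosen after their values were seen. In the body of Ttc27 (chromosome 17, 74741521 to 74742630) the Th1 libraries covered 213 to 395 bp and the Th2 libraries 770 to 995 bp, a log2 difference of 1.53 (SE 0.15, limma adjusted p 0.0783). In the body of Tnfsf11, the gene of the cytokine RANKL, Th1 libraries covered 219 to 331 bp and Th2 libraries 748 to 822 bp, a log2 difference of 1.53 (SE 0.17, limma adjusted p 0.0783). A region in the body of the ETS gene Elf1 (chromosome 14, 79530024 to 79531092) was covered over 209 to 393 bp in Th1 and 717 to 859 bp in Th2 libraries (log2 difference 1.29). In the other direction, the start of Tmem170b was covered over 858 to 1092 bp in Th1 and 322 to 601 bp in Th2 libraries (log2 difference -1.22, SE 0.17, limma adjusted p 0.0785). A gene end of Gpr171, an orphan G protein-coupled receptor gene, was covered over 436 to 659 bp in Th1 and 266 to 308 bp in Th2 libraries (log2 difference -1.05). All 4 Th2 libraries lay on 1 side of all 4 Th1 libraries in each of these regions, both libraries of conflicting labels included.

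**Figure D4:**
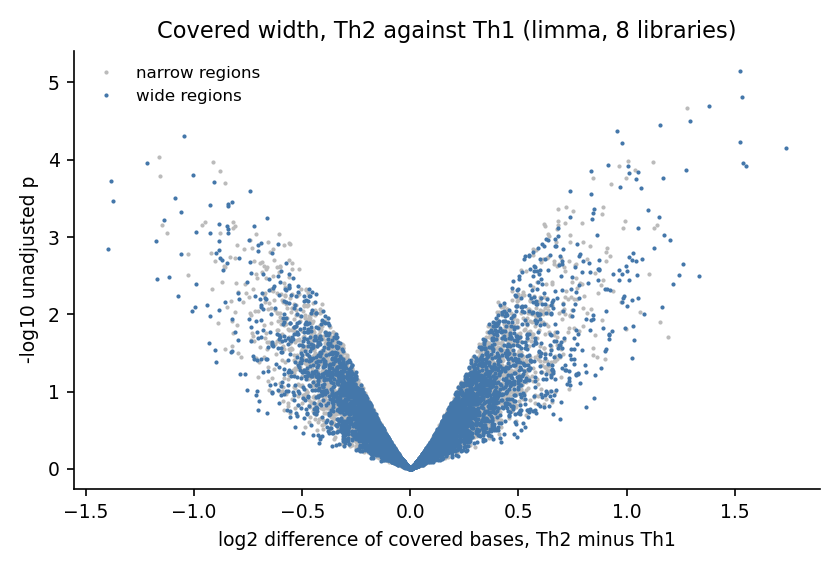
Difference in log2 covered bases between Th2 and Th1 libraries (x axis) against -log10 of the unadjusted limma p (y axis) for wide (blue) and narrow (grey) shared regions. The point clouds of the 2 classes overlap, and no point passed an adjusted p of 0.05, with Ttc27 and Tnfsf11 at a difference of 1.53 among the highest points on the right.

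Counts of regions whose libraries did not overlap gave the same picture of wide against all shared regions. After centring, all 4 Th2 libraries exceeded all 4 Th1 libraries in 253 wide regions (3.66%; 3.41% of all shared regions), and fell below them in 251 (3.63%; 3.63%). Without centring these counts were 442 (6.4%; 5.79% of all shared) and 111 (1.61%; 1.61%), and the median log2 difference over the wide regions was 0.08 in place of 0.00. Both KO libraries exceeded both WT libraries in Th1 cells in 1118 wide regions (16.2%; 16.8% of all shared) and fell below them in 1241 of the 6910 (17.1% of all shared, or 2492 of 14561). Without centring the order turned to 1188 of 6910 above, beside 2615 of all 14561 shared, and 1058 below, beside 2112. In Th2 cells the counts were 1127 (16.3%; 16.4%) and 1198 (17.3%; 17.0%). These are near the background of all shared regions in each case.

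The naive libraries were compared without a test, because each genotype was 1 biological sample. The 4 naive libraries all lay above the 8 polarized ones in 418 wide regions (6.05%; 6.94% of all shared) and all below in 383 (5.54%; 4.4%). Without centring the balance turned, with 214 above (3.1%; 3.71% of all shared) and 553 below (8.0%; 6.59%), so neither direction can be called the more frequent. KO exceeded WT in naive cells in 1716 wide regions (24.8%; 20.4% of all shared) and fell below in 1971 (28.5%; 32.0%), and the lower downstream coverage of the naive WT libraries moves with this comparison. Its part in these counts was not tested. Technical replicates of naive cells differed by a median of 1.08-fold (WT) and 1.12-fold (KO) in covered bases over the wide regions, and biological replicates of polarized cells by 1.16-fold to 1.18-fold.

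Individual wide regions differed several-fold between naive and polarized libraries and are named after their values were seen. A region of 1685 bp in the body of Nfkb1, an NF-kappa B subunit gene (chromosome 3, 135620547 to 135622231), was covered over 292 to 373 bp in naive and 773 to 1582 bp in polarized libraries. One of 1259 bp that lay 199251 bp from Myc (chromosome 15, 62189612 to 62190870) was covered over 213 to 465 bp in naive and 987 to 1237 bp in polarized libraries. The converse was seen at the start of Zfp365 (701 to 1295 bp in naive, 214 to 513 bp in polarized libraries), at that of Nck2, which encodes an adaptor between receptors and the actin skeleton (932 to 1350 bp and 221 to 628 bp), and in the body of Sh3kbp1 (952 to 1213 bp and 320 to 470 bp).

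**Figure D5:**
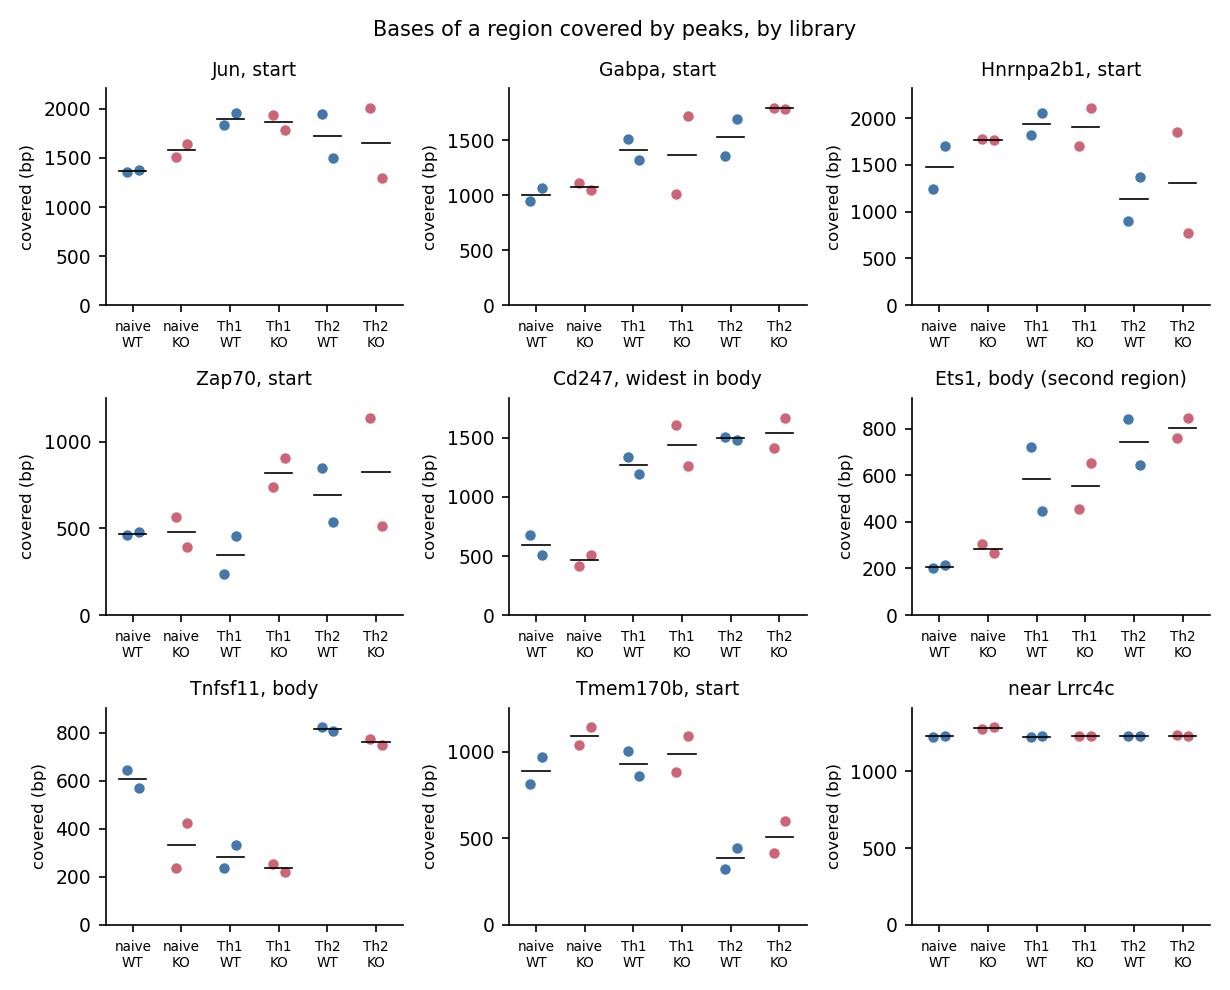
Bases of 9 named wide regions covered by peaks (bp) in each of the 12 libraries by group, blue for WT, red for KO, with a line at the mean of the 2 libraries. At Jun and Gabpa the libraries of polarized cells overlap between Th1 and Th2, the regions inside Cd247 and Ets1 are lower in all 4 naive libraries, Tnfsf11 and Tmem170b separate Th1 from Th2 libraries, and the region near Lrrc4c stays between 1224 and 1286 bp.

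Over the gene lists with a wide region, the median log2 difference between Th2 and Th1 after centring ranged from -0.30, for the single myeloid region at Irf8, to 0.10 over the 5 regions of T cell surface and receptor signalling genes, the one list with a positive median. It was -0.08 over the 27 regions of splicing factors, -0.03 over the 33 of ribosomal proteins, -0.13 over the 23 of chromatin regulators, -0.19 over the 13 of immediate early genes and -0.04 over the 9 of Th2 genes, beside 0.00 over all wide regions. Centring shifts the difference of every region by the same amount, and without it the median over all wide regions is 0.08. List medians as near to 0 as those of ribosomal proteins and Th2 genes are then positive too. That a single list had a positive median thus holds only after centring. Across the wide regions, covered bases of libraries of the same polarized group correlated at r = 0.605 to 0.630, Th1 with Th2 libraries at 0.508 to 0.570 and naive with polarized ones at 0.298 to 0.447. These values describe regions that share libraries and are given without a test.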

How the data were processed

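ATAC-seq peak lists of 12 libraries were used as deposited. Per the submitters' processing notes, BWA, Picard and MACS2 and the GRCm38 build were used by the authors; version numbers were not given in the sources used here. In every deposited list stands a score, a fold enrichment (ratio), a −log10 p and a −log10 q per peak, all the authors' values; here the score only ranked peaks within a list. The lowest −log10 q was 1. Read depth is unknown, so no counting error could be given.

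Peaks on chromosomes 1 to 19 and X were merged across lists (1 bp overlap). Genes came from RefSeq tables of GRCm38.p6; 17273 of 21627 protein-coding genes had a listed start. Covered bases were tested with limma 3.58.1 in R 4.3.3 on 4 group means of the 8 polarized libraries; the rest used Python 3.11.15. P-values measure the spread between numbered replicates, which were not paired in the main fit. Same-numbered deviations correlated at -0.012 to 0.011, so no shared deviation was seen in covered bases. Whether same-numbered replicates shared a mouse or a batch is not given by the labels. Code was tested on simulated data.

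The members, gene lists and named rules were chosen with earlier results of these data known. Named were the 10 widest members with and 5 widest without a listed start, the 2 widest per list, Ets1 and Fli1 members, and the 3 largest and 3 smallest core shares; the last 3, at a core of 0, were LOC102634078, Kdm6b and Rreb1. No called member existed to name.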

Additional observations from a re-analysis of the deposited data

How the results depend on the processing

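The number of wide regions was 6215 with peaks of a −log10 q of 2 or more, 5262 with the 34746 best-scored peaks of each library, 6460 without the 2 libraries of conflicting labels and 6671 to 6957 without 1 library. It was 2740 when every library had to cover 50% of the merged width and 3477 when every library had to have 1 peak (chosen after seeing the data). The share with a listed start was 64.2% with the stricter −log10 q, 66.02% with lists of equal length, 71.6% under the 50% rule, 61.3% to 62.2% without 1 library, 63.2% for starts within 1000 bp and 73.1% with gene ends (chosen after seeing the data); the cause was not tested. For Th2 against Th1 with lists of equal length, limma called 5 of the 5355 wide regions fitted, all 5 wider in Th2. Among them were those at or nearest to Btbd10, Pacs2, Cox7c and Sh3kbp1. The count over all shared regions fitted was also 5. The smallest limma adjusted p was 0.0496, just under the limit of 0.05. Fits without 1 library leave a lone library in a group, so their calls are not given here. In such fits the lone library is assumed to vary like other groups. Every other fit run, among them no centring, quantile normalization and the replicate block, called 0 in each of the 4 comparisons. Without the libraries of conflicting labels no KO effect in Th2 cells could be fitted. Without centring, regions wider in all naive libraries numbered 214 (3.1%, beside 3.71% of all shared) and those narrower 553 (8.0%, beside 6.59%). Without the libraries of conflicting labels they numbered 493 and 467. The share over all shared regions was not computed there, and fewer libraries overlap less easily, so these counts cannot be set against the main ones. Both settings were chosen after seeing the data. The lists hold peaks only, so weak signal beyond a peak's edge cannot be seen, and covered width is no measure of signal height.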

Other observations

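Wide regions also held starts of genes that make no protein. Of 9520 lncRNA genes with a listed start, 662 (6.95%) started in a wide region, and 151 wide regions (2.19%) held such a start with no protein-coding start or end. Among snoRNA host genes, Gas5 (1315 bp), Snhg8 (1293 bp) and Snhg5 (1150 bp) were at wide regions and Snhg1 (920 bp) and Snhg12 (619 bp) at narrow ones. Mir155hg, the host of miR-155, which acts in activated lymphocytes, had a wide region of 1638 bp, and Dancr one of 1169 bp. Of 1005 miRNA hairpins, 38 lay in a wide region and 18 in a narrow one. Among the 38 were Mirlet7i, of the let-7 family, in a region of 1540 bp in or at Mon2, Mir423 at Nsrp1 (1121 bp), Mir207 at Dnaja1 (1580 bp) and Mir760 at Dnttip2 (1595 bp).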
